A study of Mus musculus with 96 samples.

Results

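Glucagon and 3 further transcripts that mark pancreatic α-cells were followed in mouse islets over 24 weeks of high-fat feeding. The 4 genes are Gcg, Ttr, Irx1 and Irx2. They were taken by symbol from a table that lists 21990 genes, of which 20155 have values. The choice was made with earlier results of these data known, so counts of members called describe these 4 genes only. The mice were C57BL/6N males, bought at 4 weeks of age. They were then kept for 4, 8, 12, 16, 20 or 24 weeks on a chow diet with 13.5% fat (CD, LabDiet 5001) or on a high-fat diet with 60% fat (HFD, Research Diets D12492). Each of the 12 groups held 4 mice, and islets and liver were taken from the same animals, which gave 48 islet and 48 liver libraries. Islets were picked by hand after collagenase digestion and sequenced whole, so α-cells were measured together with all other cells of the islet. The mice carried no transgene, and the diets also differ in their ingredients, so an effect of fat cannot be told apart from one of the other ingredients.

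α-cells are the islet cells that secrete glucagon, the hormone that raises blood glucose by driving glucose output from the liver. Gcg encodes proglucagon, which the convertase PCSK2 cuts to glucagon in α-cells and which PCSK1 cuts to glucagon-like peptide 1 in gut cells. Ttr encodes transthyretin, a carrier of thyroid hormone and, with retinol-binding protein, of retinol, made mainly in liver and choroid plexus and also abundant in α-cells. Irx1 and Irx2 encode homeodomain transcription factors of the Iroquois family, which neighbour each other in the genome and in the islet are known from α-cells.

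Sequences next to a transcription start are shown for the hormone gene and for a transcription factor gene. They are the 250 bases before the start that the RefSeq promoter entries give (GRCm38.p6), at chr2:62483654-62483903 on the minus strand for Gcg and at chr13:72628570-72628819 on the plus strand for Irx2. For Gcg this start is the end of the gene's RefSeq range. For Irx2 it lies inside that range, which begins at 72624430, so the Irx2 window stands before an internal start. Neither window overlaps a gene or an exon of the GENCODE M21 annotation, so by that annotation the Irx2 window lies outside the gene. They are written 5′ to 3′ in the direction of the gene, and capitals mark matches, on either strand, to TATAAA (the TATA box), TAAT (the core bound by many homeodomain proteins) or GTAAANA (the core bound by forkhead factors such as FOXA), where N is any base. Windows of Ttr and Irx1 are not shown and were not searched.
Gcg: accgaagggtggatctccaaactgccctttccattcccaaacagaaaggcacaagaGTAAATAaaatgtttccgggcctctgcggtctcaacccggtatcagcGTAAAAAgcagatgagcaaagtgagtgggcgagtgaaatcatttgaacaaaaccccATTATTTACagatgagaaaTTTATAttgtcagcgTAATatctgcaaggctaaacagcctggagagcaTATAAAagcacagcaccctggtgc
Irx2: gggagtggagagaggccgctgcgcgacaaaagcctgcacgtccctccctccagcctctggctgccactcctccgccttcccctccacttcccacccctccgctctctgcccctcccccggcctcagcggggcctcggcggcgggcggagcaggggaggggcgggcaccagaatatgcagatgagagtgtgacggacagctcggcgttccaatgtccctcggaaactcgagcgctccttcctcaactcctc

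The Gcg window had a GC content of 44.8% and held a TATAAA match 24 bases before the start. It also held a second TATAAA match, 2 TAAT matches and 3 GTAAANA matches, of which the one 89 bases before the start overlaps the TAAT match that begins 91 bases before it. The Irx2 window had a GC content of 68.4% and none of the 3 motifs. Among 32851 windows of the same length, 12.4% held TATAAA, 54.9% TAAT and 10.9% GTAAANA. A match describes the letters only and says nothing of whether a factor binds there.

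In the coordinates of the mouse build GRCm38 that the table uses, Gcg (Entrez gene 14526) spans 62474530 to 62491679 on the minus strand of chromosome 2, and Ttr (22139) spans 20612050 to 20674326 on the plus strand of chromosome 18. Irx1 (16371) lies at 71958232 to 71963723 on the minus strand of chromosome 13, and Irx2 (16372) at 72623269 to 72634196 on the plus strand of the same chromosome. No other listed gene overlaps any of the 4. The table counts transcripts that the authors added to RefSeq, namely 3 of 4 for Gcg, 5 of 6 for Ttr and 2 of 3 for Irx2, while the single Irx1 transcript is from RefSeq. Since expression is given per length of transcript, a comparison of levels between these genes depends on those models.

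The islet libraries were alike in kind. Pearson's r of log2(FPKM + 1) between any 2 of them lay between 0.967 and 0.998, and no 2 had identical values. FPKM are fragments per kilobase of transcript, scaled to the mapped fragments of the library, and they summed to 892097 to 1278652 per islet library. Since the table gives no read counts, the depth behind a single value is unknown. The insulin genes Ins1 and Ins2 took 53.7% to 75.1% of these sums, as beta-cells are the bulk of a mouse islet. This share was higher on HFD without overlap at week 12 (53.7% to 59.2% in CD and 67.3% to 71.4% in HFD) and at week 16 (60.5% to 65.3% and 67.9% to 73.8%). The summed FPKM of 16 acinar genes, from exocrine tissue left on the islets, ranged from 3878 to 120729. In a bulk library, fewer α-cells, less RNA per α-cell and more RNA from other islet cells cannot be told apart.

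Gcg was among the most abundant transcripts of the islet and fell on HFD at every time point from week 8 onwards. Its group mean ranked 4th of 20155 genes in both diets at week 4. At week 24 it ranked 5th in CD and 15th in HFD mice. From week 4 to week 24 the mean on HFD was 90.5%, 67.6%, 38.0%, 21.6%, 26.5% and 13.3% of that on CD. Ttr, Irx1 and Irx2 also became lower on HFD. By limma, the adjusted p was under 0.05 from week 8 for Irx2, week 12 for Irx1 and week 16 for Ttr. These weeks depend on that threshold, and the order in which the members fell was not tested. At week 8 Gcg and Irx2 passed it in some settings only.

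Each week was tested by limma on log2(FPKM + 1), with 4 HFD and 4 CD libraries, and a gene was called at an adjusted p under 0.05. A log2 fold change is HFD minus CD on that scale, on which the added 1 shrinks the change of a gene of few FPKM. At week 4 none of the 4 members was called lower, as were 0.0% of all genes tested, and none had an unadjusted p under 0.05 in limma. At week 8, 2 of 4 were called lower against 4.67% of all genes, and at week 12, 3 of 4 against 2.35%. All 4 were called lower in weeks 16, 20 and 24, against 5.15%, 3.21% and 1.73% of all genes. No member was called higher in any week, where 0.0%, 0.602%, 2.18%, 3.3%, 1.53% and 6.57% of all genes were. The counts over all genes depend on the scaling. With insulin left out of the library total, genes called higher went from 246 to 2876 at week 12 and from 386 to 4799 at week 16. With acinar genes left out, those called lower went from 265 to 3903 and from 602 to 1886 in these weeks, and with median ratio scaling from 543 to 78 at week 8. Members whose log2 fold change was also -1 or less numbered 0, 0, 1, 3, 4 and 4 over the 6 weeks, and 0.0%, 0.0258%, 0.257%, 0.813%, 0.41% and 0.436% of all genes met that rule. The median log2 fold change of the 4 was -0.11, -0.42, -0.94, -1.30, -1.30 and -1.60 from week 4 to week 24, and that of all genes tested was -0.03, -0.11, 0.01, 0.01, -0.02 and 0.08. Gcg and Irx2 belonged to the 32 genes, 0.289% of those tested throughout, that were called lower at each of weeks 8 to 24. Irx1 joined them among the 74 genes (0.666%) called lower at each of weeks 12 to 24, and Ttr among the 97 (0.846%) called lower at each of weeks 16 to 24.

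**Figure D1:**
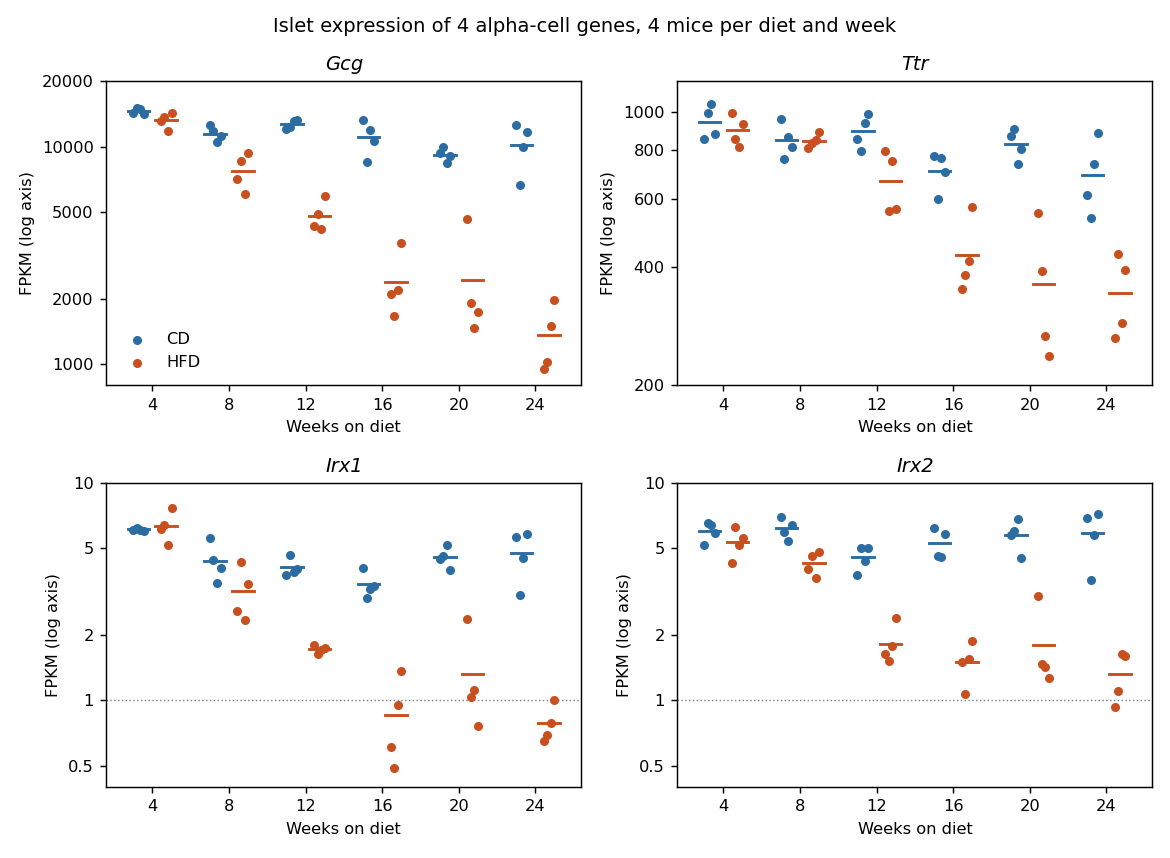
FPKM of Gcg, Ttr, Irx1 and Irx2 (log axes) in islets against weeks on diet, with 1 point per mouse, a bar for the mean of 4 mice, CD in blue and HFD in orange. The dotted line marks 1 FPKM. At week 24 the HFD mice had 950.1 to 1961 FPKM of Gcg and the CD mice 6678 to 12542.

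Gcg was first followed mouse by mouse. At week 4 the CD mice had 14326, 15018, 14885 and 14054 FPKM and the HFD mice 13106, 13595, 11752 and 14279.6. Only HFD118 reached the CD range (2.72% of all genes had every HFD mouse below every CD mouse), and the log2 fold change was -0.15 ± 0.07 (SE), which was not called (adjusted p = 0.69). At week 8 the CD mice had 12588, 11738, 10458 and 11120.4 FPKM and the HFD mice 7077, 8540.5, 6071 and 9324. All HFD mice were below all CD mice, which was so for 15.8% of all genes in that week, and the gene was called, at -0.58 ± 0.13 (adjusted p = 0.029). This call was lost in 4 other settings, with adjusted p of 0.12 when all 12 groups shared a fit, 0.067 without a filter on low FPKM, 0.10 with median ratio scaling and 0.0505 with acinar genes left out of the library total, and without each of 5 of the 8 mice in turn (CD203, CD205, CD208, HFD211 and HFD213; adjusted p up to 0.087).

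From week 12 the distance between the diets was larger than the spread within either. At week 12 the CD mice had 12041, 12256, 13138 and 13225 FPKM, and the HFD mice had 4297, 4874, 4158 and 5907. The highest HFD value was below the lowest CD value, as for 3.47% of all genes in that week, and the difference came to -1.41 ± 0.09 (adjusted p = 8.8e-07). At week 16 the CD mice had 13204, 8525, 11896 and 10646 FPKM and the HFD mice 2098, 1659, 2189.9 and 3596. The groups stood apart (8.77% of all genes did), at -2.25 ± 0.26 on the log2 scale (adjusted p = 0.0030).

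At week 20 the CD mice had 9291, 9965, 8422 and 8998 FPKM and the HFD mice 4630.2, 1914, 1459.9 and 1726. HFD511 stood above the other HFD mice and below every CD mouse, and groups stood apart for 9.76% of all genes. On the log2 scale the difference was -2.07 ± 0.32 (adjusted p = 0.014). It was -2.44 without HFD511 (adjusted p = 4.3e-06) and -1.96 without HFD518, where the call was lost (adjusted p = 0.055). At week 24 the CD mice had 12542, 6678, 9936 and 11679.5 FPKM and the HFD mice 950.1, 1026, 1493 and 1961. Every HFD mouse was below every CD mouse (2.41% of all genes), and the log2 fold change of -2.93 ± 0.31 (adjusted p = 0.0027) was the most negative of the 11709 genes tested in that week. In group means, Gcg was 10209 ± 2592 FPKM (SD, n = 4) in CD and 1358 ± 468 in HFD mice, a 7.52-fold difference.

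Because FPKM are shares of a library, Gcg was also set against insulin within each library, which removes the library total. Gcg FPKM amounted to 1.92% ± 0.143 of the summed FPKM of Ins1 and Ins2 in CD and 1.61% ± 0.215 in HFD mice at week 4 (SD, n = 4), and these groups overlapped. At week 8 it was 1.73% ± 0.183 in CD and 1.05% ± 0.324 in HFD mice. The groups no longer overlapped, and they remained apart in every later week. At week 24 it was 1.54% ± 0.544 in CD and 0.200% ± 0.0704 in HFD mice.

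Ordered by mean, the 12 islet groups ran for Gcg from CD at week 4 through HFD at week 4 and the other CD groups down to the HFD groups of weeks 8, 12, 20, 16 and 24. Neighbours in that order overlapped in range everywhere but between HFD at week 8 and HFD at week 12. The HFD groups of weeks 16 and 20, at 2386 ± 839 and 2433 ± 1477 FPKM, could not be told apart.

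Ttr, at 238 to 1049.5 FPKM in islets, was called later and differed less. The groups overlapped up to week 12 and were apart at weeks 16, 20 and 24, when the HFD mean was 60.8%, 43.6% and 49.9% of the CD mean. Of all genes, 8.77%, 9.76% and 2.41% had every HFD mouse below every CD mouse in these weeks. At week 4 the CD mice had 851, 993, 1049.5 and 881 FPKM and the HFD mice 993, 855, 815 and 933. At week 8 the CD mice had 958, 756, 862 and 814 FPKM and the HFD mice 808, 835, 848 and 887. In both weeks the diets were interleaved, and the log2 fold changes were -0.07 ± 0.09 and -0.00 ± 0.08. Gcg was called lower at week 8, though not in every setting, and which gene fell first was not tested.

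At week 12 the CD mice had 852, 795, 939 and 989.6 FPKM of Ttr and the HFD mice 795, 559, 748 and 564. HFD313 reached the lowest CD mouse, CD306, and the 3 other HFD mice lay below the CD range. The log2 fold change of -0.44 ± 0.12 was not called (adjusted p = 0.087). It passed the threshold without HFD313 (-0.53, adjusted p = 0.0027), without HFD316 (-0.50, adjusted p = 0.034) and with acinar genes left out of the library total (-0.72, adjusted p = 6.1e-06), where 34.6% of all genes were called lower. Acinar sums in that week were 50600 to 120729 FPKM in CD and 9438 to 46165 in HFD mice. With insulin left out of the total, the difference in Ttr was -0.14 (adjusted p = 0.29).

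At week 16 the CD mice had 769, 599, 761 and 704 FPKM of Ttr and the HFD mice 353, 382, 416.4 and 572. The highest HFD mouse, HFD418, lay just under the lowest CD mouse, CD403, and the difference was called at -0.73 ± 0.15 (adjusted p = 0.018). At week 20 the CD mice had 870.0, 906, 738 and 804 FPKM and the HFD mice 552, 391, 267 and 238. HFD511 was again the highest of its group, and the groups did not overlap (-1.27 ± 0.24, adjusted p = 0.026). At week 24 the CD mice had 614.5, 536, 735 and 882 FPKM and the HFD mice 264, 434, 288 and 394. The groups stood apart again, by -1.01 ± 0.21 (adjusted p = 0.031).

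The calls of Ttr in the late weeks did not hold in every fit that left out 1 mouse. Leaving out 1 mouse at a time, they held in 4 of 8 fits in week 16, 2 of 8 in week 20 and 3 of 8 in week 24, with adjusted p no higher than 0.078, 0.085 and 0.080. The mice without which the call was lost were CD401, CD405, CD407 and HFD416 of week 16, all 4 CD mice with HFD517 and HFD518 of week 20, and CD601, CD606, CD608, HFD616 and HFD617 of week 24. In the fit that shared its spread over all 12 groups, the adjusted p were 0.0056, 4.1e-06 and 0.00012.

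The 2 Iroquois factors were transcripts of few FPKM. Neither was called at week 4, and at week 12 the HFD means were 42.0% and 40.2% of the CD means. By week 24 the HFD mean of Irx1 was 16.5% and that of Irx2 22.5% of the CD mean. For both, every HFD mouse was below every CD mouse at weeks 12, 16, 20 and 24. This was so for 3.47%, 8.77%, 9.76% and 2.41% of all genes. Irx1 and Irx2 ranked 7173rd and 7228th of 20155 genes in CD mice at week 4. They ranked 11969th and 11251st in HFD mice at week 24.

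For Irx1 at week 4 the CD mice had 6.08, 6.22, 6.08 and 6.03 FPKM and the HFD mice 6.15, 6.38, 5.19 and 7.65. The HFD mice lay on both sides of the CD mice, which were close together, and the log2 fold change was 0.04 ± 0.10 (adjusted p = 0.93). At week 8 the CD mice had 5.58, 4.42, 3.47 and 4.07 FPKM and the HFD mice 2.56, 4.31, 2.35 and 3.43. Only HFD212 reached into the CD range, and the log2 fold change of -0.38 ± 0.16 was not called (adjusted p = 0.14), though it was with acinar genes left out of the library total (-0.47, adjusted p = 0.042).

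At week 12 the CD mice had 3.77, 4.66, 3.87 and 4.03 FPKM of Irx1 and the HFD mice 1.79, 1.63, 1.71 and 1.73. The groups were far apart relative to the spread within them (-0.90 ± 0.11, adjusted p = 6.3e-06). At week 16 the CD mice had 4.06, 2.96, 3.26 and 3.36 FPKM and the HFD mice 0.61, 0.49, 0.95 and 1.36. The groups did not overlap (-1.27 ± 0.13, adjusted p = 6.3e-05), and with a pseudocount of 0.1 the difference was -1.96. At week 20 the CD mice had 4.46, 4.61, 5.16 and 3.96 FPKM and the HFD mice 2.36, 1.04, 1.11 and 0.76. HFD511 was the highest of the HFD mice, and still below the CD range (-1.30 ± 0.18, adjusted p = 0.0050).

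At week 24 the CD mice had 5.61, 3.04, 4.5 and 5.79 FPKM of Irx1 and the HFD mice 0.65, 0.69, 0.79 and 1.0. The HFD mice lay together far below the CD mice (-1.66 ± 0.15, adjusted p = 1.1e-05). Genes were tested when at least 4 of the 8 libraries reached 1 FPKM, and at weeks 16 and 24 a single HFD library did so for Irx1. It passed the filter there through the CD mice, and the test of those weeks is conditional on that. Without any filter, all 4 members were likewise called at weeks 16, 20 and 24. By the ratio of means, Irx1 was 4.00-fold lower on HFD at week 16 and 6.05-fold lower at week 24.

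For Irx2 at week 4 the CD mice had 5.15, 6.54, 6.41 and 5.9 FPKM and the HFD mice 4.29, 6.24, 5.18 and 5.58. The diets were interleaved (-0.15 ± 0.11, adjusted p = 0.75). At week 8 the CD mice had 6.98, 5.95, 5.4 and 6.4 FPKM and the HFD mice 4.0, 4.58, 3.66 and 4.78. All HFD mice were below all CD mice, which was so for 15.8% of all genes in that week. The difference of -0.45 ± 0.09 was called (adjusted p = 0.026). As for Gcg, this call was lost with all 12 groups in a fit (adjusted p = 0.060), without a filter (0.059), with median ratio scaling (0.079) and without each of the same 5 mice of week 8 (up to 0.071).

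At week 12 the CD mice had 3.75, 4.99, 4.38 and 5.01 FPKM of Irx2 and the HFD mice 1.63, 1.51, 1.77 and 2.38. At week 16 the CD mice had 6.17, 4.61, 4.54 and 5.82 FPKM and the HFD mice 1.5, 1.07, 1.55 and 1.88. In both weeks the groups stood apart, by -0.97 ± 0.12 (adjusted p = 9.2e-06) and -1.33 ± 0.12 (adjusted p = 1.0e-05). At week 20 the CD mice had 5.78, 5.97, 6.81 and 4.51 FPKM and the HFD mice 3.02, 1.46, 1.42 and 1.26. HFD511 stood clear of the 3 other HFD mice (-1.31 ± 0.18, adjusted p = 0.0059). At week 24 the CD mice had 6.86, 3.56, 5.78 and 7.18 FPKM and the HFD mice 0.93, 1.1, 1.63 and 1.6. CD605 was the lowest CD mouse for Irx2, as for Gcg, Ttr and Irx1, and still lay above every HFD mouse (-1.54 ± 0.18, adjusted p = 0.00059).

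Ordered by mean, the HFD groups of weeks 12, 16, 20 and 24 held the lowest 4 places of the 12 groups for each of Gcg, Ttr, Irx1 and Irx2. Among neighbours in the order of Irx1 or Irx2, HFD at week 8 was apart in range from HFD at week 12, and the lowest 4 overlapped from one place to the next. CD at week 4 and CD at week 24 were also apart for Irx1, and all other neighbours overlapped. For Ttr every neighbouring pair in the order overlapped, from 943 FPKM in CD at week 4 to 345 FPKM in HFD at week 24.

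The members did not change by equal amounts. The mean over the 6 weeks of the HFD minus CD difference in log2(FPKM + 1) was compared between members, with a two-sided permutation test of the diet labels within weeks (100000 resamples, smallest possible p 1e-05) and adjustment over the 6 pairs. The difference of Gcg minus that of Ttr was -0.98 (adjusted p = 2e-05), and it was also -0.98 with a pseudocount of 0.1. The distance from Gcg to Irx1 was -0.65 and that to Irx2 -0.61 (both adjusted p = 2e-05). With a pseudocount of 0.1 in place of 1, which shrinks the change of the Iroquois genes less, they were -0.26 (adjusted p = 9e-05) and -0.32 (adjusted p = 9.6e-05).

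Ttr changed less than Irx1 by 0.33 (adjusted p = 9.6e-05) and less than Irx2 by 0.37 (adjusted p = 4.5e-05). With a pseudocount of 0.1 these distances were 0.72 and 0.66. Irx1 and Irx2 differed by 0.05 (p = 0.26 by permutation) and by -0.06 with a pseudocount of 0.1 (p = 0.36), and, with the pseudocount of 1, over the 6 weeks the distance lay between -0.12 at week 24 and 0.19 at week 4. All of these distances include week 4, where no member was called.

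Ratios of FPKM within a library, which depend on neither pseudocount nor library total, are given beside this. The ratio of Gcg to Ttr was 15.5 ± 1.14 in CD and 14.7 ± 1.17 in HFD mice at week 4 (SD, n = 4). It was 14.9 ± 3.695 in CD and 4.03 ± 1.31 in HFD mice at week 24, and the diets were apart in every week from week 8. The ratio of Gcg to Irx1 was 3125 ± 340 in CD and 2809 ± 486 in HFD mice at week 12, and 2164 ± 99.5 and 1699.95 ± 262 at week 24. It overlapped between the diets at weeks 8 to 20 and was apart at weeks 4 and 24. Gcg to Irx2 was apart at week 24 alone, at 1762 ± 111.8 in CD and 1024 ± 142 in HFD mice. Irx1 to Irx2 overlapped at weeks 4 to 20 and was apart at week 24, at 0.814 ± 0.0312 in CD and 0.609 ± 0.0897 in HFD mice.

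**Figure D2:**
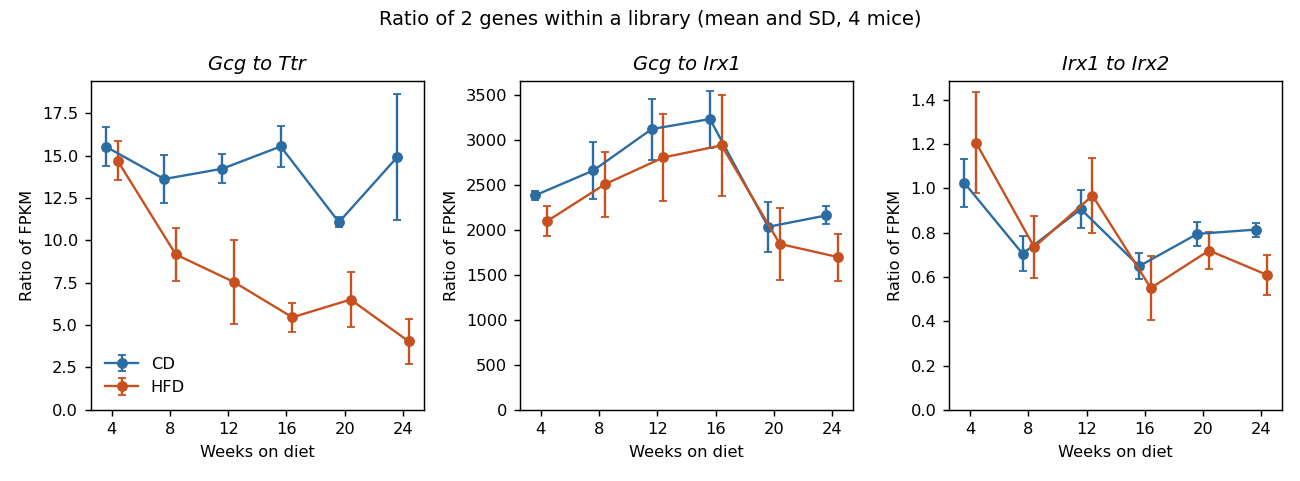
Ratio of the FPKM of 2 genes within a library against weeks on diet, as mean and SD of 4 mice, for Gcg to Ttr, Gcg to Irx1 and Irx1 to Irx2 (CD blue, HFD orange). Gcg to Ttr parted between the diets from week 8 and reached 14.9 in CD and 4.03 in HFD mice at week 24, while Gcg to Irx1 overlapped at weeks 8 to 20.

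The diet difference of every member was larger in the late weeks than in the early ones. The mean difference of weeks 16, 20 and 24 minus that of weeks 4, 8 and 12, in a limma fit of all 48 islet libraries, was -1.71 ± 0.20 (SE) for Gcg (adjusted p = 2.8e-07), -0.84 ± 0.15 for Ttr (adjusted p = 0.00028), -0.99 ± 0.13 for Irx1 (adjusted p = 6.3e-07) and -0.87 ± 0.13 for Irx2 (adjusted p = 8.6e-06). These 4 were among 120 of 12378 genes (0.969%) with a negative difference called. The late and early means of Gcg were -2.42 and -0.71.

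Within HFD mice, week 24 minus week 4 was -3.34 on the log2 scale for Gcg (adjusted p = 2.3e-13). The same difference was -1.41 for Ttr (adjusted p = 6.5e-08), -2.04 for Irx1 (adjusted p = 1.2e-13) and -1.45 for Irx2 (adjusted p = 6.1e-10). All 4 were called, against 11.1% of all genes. Within CD mice, 1 of 4 was called lower at week 24 than at week 4, against 14.6% of all genes. That was Ttr (-0.47, adjusted p = 0.043), and it was not called without a filter, with insulin or acinar genes left out of the library total, or without any of 7 of the 8 CD mice of those weeks. The difference in CD mice was -0.55 for Gcg (adjusted p = 0.075), -0.34 for Irx1 (adjusted p = 0.089) and -0.06 for Irx2 (adjusted p = 0.79). An F test over the 6 weeks called all 4 members in HFD mice, where it called 83.8% of all genes, and 1 of 4, Irx1, in CD mice, where it called 77.5%. The weeks are different mice, so within a diet, time on diet cannot be told apart from age or other differences between weeks.

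**Figure D3:**
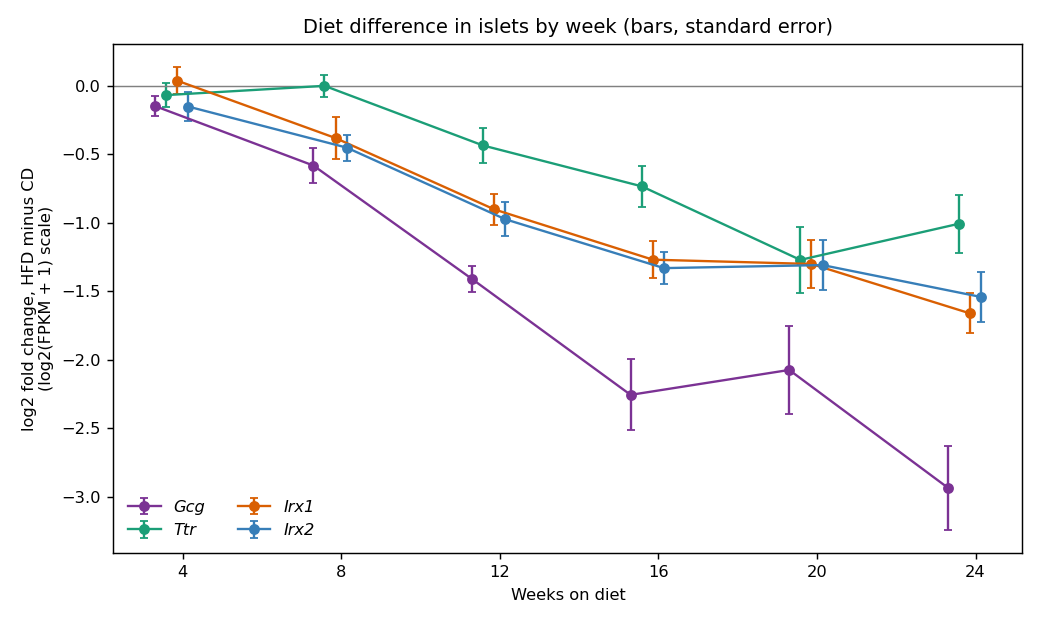
HFD minus CD difference in islets in log2(FPKM + 1), with its standard error, against weeks on diet for the 4 members, slightly offset sideways. Gcg reached -2.93 at week 24 and Ttr, level at week 8, was at -1.01.

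Of 5 other α-cell markers reported here, 4 passed the filter, and 0, 1, 1, 1, 0 and 1 of them were called lower from week 4 to week 24, with 0, 1, 0, 1, 0 and 1 called higher. Their median log2 fold change was -0.15 at week 24. The list was written with earlier results of these data known and was shortened afterwards, so its counts describe these 5 genes and not α-cell markers in general.

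Pou3f4, a transcription factor of α-cells, was at most 0.44 FPKM in any islet library and was not tested. Its mean was 0.338 in CD and 0.310 in HFD mice at week 4 and 0.205 and 0.030 at week 24, with all HFD mice below all CD mice from week 8. Of the genes tested, 15.8%, 3.47%, 8.77%, 9.76% and 2.41% stood apart in this way at weeks 8 to 24. Pou3f4 was not among those genes, and values this low, given to 2 decimals, are near the floor.

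Slc38a5, a glutamine transporter, fell at weeks 12, 16 and 24 (at week 24 from 4.88 ± 1.02 to 1.79 ± 0.618 FPKM, -1.09, adjusted p = 0.0016). Slc7a2, a transporter of cationic amino acids, was called at week 8 alone (-0.48, adjusted p = 0.020) and Etv1, a transcription factor, in no week. Gc, which encodes the vitamin D-binding protein and is abundant in α-cells, was higher in 3 weeks. At week 8 it had 59.4 ± 17.1 FPKM in CD and 152 ± 47.4 in HFD mice and was called higher (1.33, adjusted p = 0.042). It was also called higher in weeks 16 (0.56, adjusted p = 0.049) and 24 (66.0 ± 15.5 and 127 ± 32.5 FPKM, 0.94, adjusted p = 0.045), with the diets overlapping at week 16.

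Transcription factors that α-cells share with other endocrine cells showed few differences. Of 9 listed, 8 passed the filter, among them Pax6, Isl1, Foxa2, Nkx2-2 and Insm1. Neurod1 was lower at week 8 and Isl1 higher at week 24 (0.28, adjusted p = 0.025), and no other call was made in any week. Pax6, which activates Gcg transcription and is made in beta-cells as well, had 74.7 ± 6.18 FPKM in CD and 82.5 ± 4.35 in HFD mice at week 24 (0.14, adjusted p = 0.29). The median of the 8 was 0.05 at week 24, beside 0.08 for all genes.

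None of the genes that process prohormones was called lower in any week. All 6 of its listed genes were tested. Pcsk2, the convertase that makes glucagon, had 963 ± 47.6 FPKM in CD and 883 ± 8.65 in HFD mice at week 4, and 651 ± 77.5 and 622 ± 52.3 at week 24 (-0.06, adjusted p = 0.73). Pcsk1n, an inhibitor of PCSK1, was higher at weeks 12 and 16 (0.32, adjusted p = 0.012, and 0.37, adjusted p = 0.043). In the late weeks minus the early ones, the diet difference of Pcsk1 was -0.31 (adjusted p = 0.028) and that of Cpe, a carboxypeptidase that trims the cut peptides, -0.20 (adjusted p = 0.032). Most of these genes are made in beta-cells as well.

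Of 7 receptors for proglucagon peptides or of α-cells, 5 passed the filter at weeks 4 to 12 and 4 later. Glp1r and Gipr, the incretin receptors of beta-cells, were lower at week 8 (-0.52, adjusted p = 0.033, and -0.56, adjusted p = 0.0087), and in no other week. Sstr2, the somatostatin receptor that α-cells use, was lower at week 12 (1.75 ± 0.346 FPKM in CD and 0.585 ± 0.161 in HFD mice, -0.79, adjusted p = 6.8e-05). No HFD library reached 1 FPKM in that week, so it passed the filter through the CD mice. It was under the filter later, with means of 1.15 and 0.193 at week 24. Avpr1b, a vasopressin receptor known from α-cells, was under the filter in every week, with means of 0.765 and 0.075 FPKM at week 24. All HFD mice were below all CD mice from week 8, as for 2.41% to 15.8% of the genes tested in those weeks. The glucagon receptor Gcgr was called in no week.

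Of the other Iroquois genes none reached 1 FPKM in any islet library. Irx3 was at most 0.50 FPKM and Irx4, Irx5 and Irx6 at most 0.05. Among 7 partners of transthyretin in retinol and thyroid hormone handling, 4 passed the filter. Rbp4, the retinol-binding protein that circulates in a complex with transthyretin, was lower at weeks 12 to 24 (59.2 ± 6.09 FPKM in CD and 10.6 ± 5.24 in HFD mice at week 24, -2.48, adjusted p = 0.0054). In the islet Rbp4 is known as a δ-cell transcript. The thyroid hormone receptor gene Thra was lower at weeks 8, 12 and 16 (-0.42, -0.42 and -0.39) and not called at weeks 20 and 24. Dio1, a deiodinase that converts thyroid hormone, was higher at week 12 (49.7 ± 4.79 FPKM in CD and 72.3 ± 0.958 in HFD mice, 0.54, adjusted p = 0.00042) and at week 16 (44.0 ± 4.58 and 57.6 ± 7.90 FPKM, 0.38, adjusted p = 0.035).

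Markers of the other rare endocrine cells moved with the members, and their part in the members' differences was not tested. Of 4 δ-cell genes, 2 were called lower at week 8, against 4.67% of all genes. From week 12, 3 were tested, and all 3 were called lower at each of weeks 12 to 24. Of all genes, 2.35%, 5.15%, 3.21% and 1.73% were called lower in those weeks. The hormone Sst had 2520 ± 310 FPKM in CD and 409 ± 139 in HFD mice at week 24 (-2.66, adjusted p = 0.00034), and the summed FPKM of the 4 genes were then 2317 to 2959 in CD and 330 to 634 in HFD mice. Ppy and Pyy, of pancreatic polypeptide cells, were both called at weeks 16 and 24, and Ghrl of ε-cells at weeks 16, 20 and 24. At week 24 none of the HFD libraries reached 1 FPKM of Ghrl, which passed the filter through the CD mice (4.17 ± 1.25 FPKM in CD and 0.623 ± 0.364 in HFD mice). Of 10 beta-cell genes, 2 were called lower and 1 higher at week 8. None was called lower at weeks 12 to 24, and 5, 5, 1 and 2 were called higher. Of all genes, 2.18%, 3.3%, 1.53% and 6.57% were called higher in those weeks. The summed FPKM of the beta-cell genes at week 24 were 635011 to 836809 in CD and 617193 to 785020 in HFD mice.

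Cells from outside the endocrine islet moved in their own ways, and their part in the members' differences was not tested. Of 16 acinar genes, 2, 3, 0 and 1 were called lower at weeks 12, 16, 20 and 24, with medians of -1.62, -1.49, 1.11 and -0.47. The 4 globin genes were all called higher at weeks 16 and 20, and 3 of 4 endothelial genes at week 24. Ductal, stromal, leukocyte and hepatocyte lists had at most 2 calls in any week. Of their summed levels, the hepatocyte list reached 9.71 to 134 FPKM in islets.

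**Figure D4:**
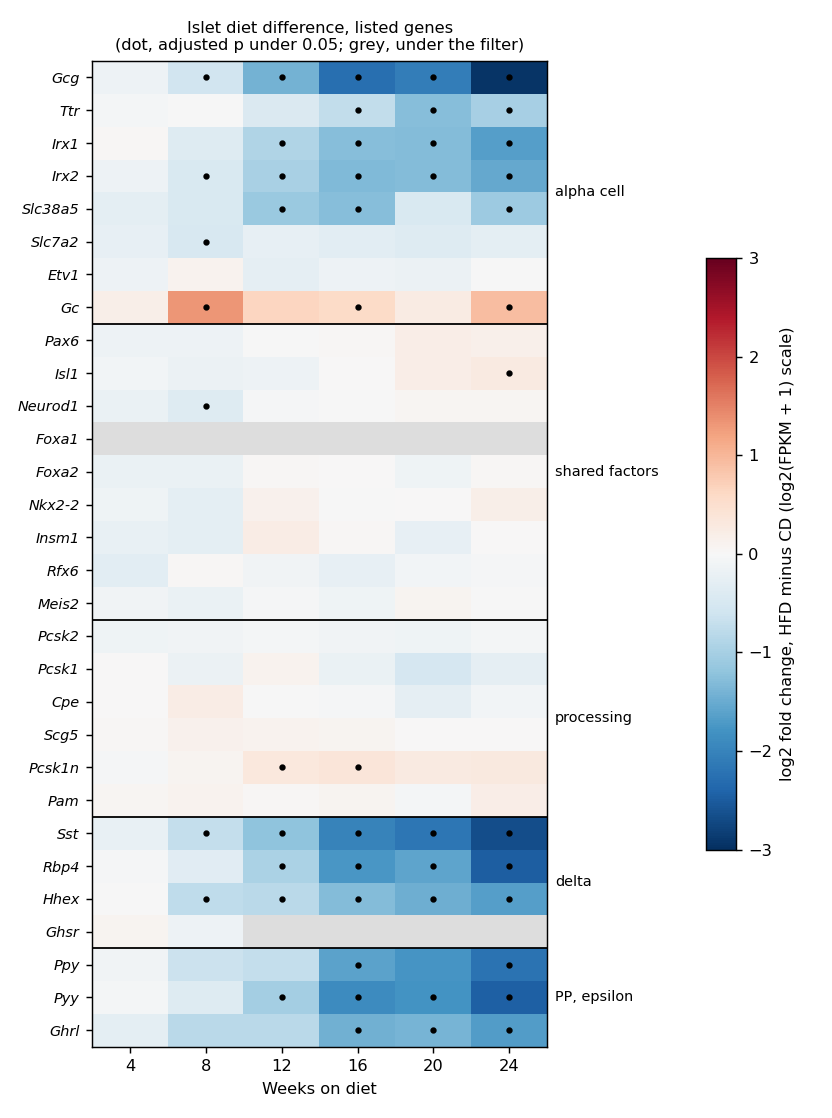
HFD minus CD difference in islets (color, log2(FPKM + 1) scale, blue lower and red higher on HFD) for listed genes in rows and weeks on diet in columns. Dots mark adjusted p under 0.05 and grey marks genes under the filter. Sst at -2.66 and Gcg at -2.93 darken towards week 24, Gc is red, and the processing genes hold no dot for a lower value.

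The genes whose pattern was most like each member over the 48 islet libraries, by Pearson's r of log2(FPKM + 1) among 11556 genes, are given as a description. The libraries share diets and weeks, so a common diet effect alone gives a high r. For Gcg they were Rbp4 (0.978), Sst (0.975), AW551984 (0.968), Eef1a2 (0.962) and Arg1 (0.961). For Ttr they were Sfrp5 (0.924), Gpx3 (0.922), Sst, Rbp4 and Arg1, and for Irx1 they included Eef1a2 (0.959), Rcn3, Ffar4 and Igsf21. For Irx2 they were Ndst4 (0.962), Mamld1, Drc1, Gata6 and Efnb3.

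With group means taken out, which leaves the differences between mice of a group, Gcg was still most like Sst (0.884) and Rbp4 (0.865), followed by Eef1a2 (0.833), Gm609 and Drc1. Among the members on that scale, Gcg had an r of 0.798 with Irx1, 0.791 with Irx2 and 0.609 with Ttr, and Irx1 and Irx2 had 0.809 with each other. These 48 points share library totals and the makeup of each islet preparation. They include HFD511 of week 20, the highest of its group for Gcg and for the summed δ-cell genes (1721 FPKM). No r was computed without this mouse. The genes most like Ttr on that scale were Ppp1r3f (0.745), Sfrp5 (0.734), Lrrn1, Etv5 and Slc6a17, none of which was among the 5 most like Gcg, Irx1 or Irx2. Those most like Irx1 were Eef1a2 (0.750), Gap43, Drc1, Kcnk3 and Ndst4, and those most like Irx2 were Ndst4 (0.766), Kcnk3, Itpr1, Ctdp1 and Eef1a2.

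In the liver of the same mice, where Ttr is a main secretory transcript, no diet difference in its level was called. Liver Ttr ranged from 2707 to 7073 FPKM over 48 libraries, with a median of 4948, while islet Ttr ranged from 238 to 1049.5. At week 16 the CD livers had 4669.96, 4182, 4233 and 3679.6 FPKM and the HFD livers 4434, 5415, 5038 and 5374. The HFD livers were mostly the higher ones, with an overlap, and the log2 fold change of 0.27 ± 0.11 was not called (adjusted p = 0.16, unadjusted p = 0.029 in limma).

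At week 24 the CD livers had 2707, 3481, 3339 and 3288 FPKM of Ttr and the HFD livers 3182, 3448, 3087 and 4147. The diets were interleaved (0.11 ± 0.15, adjusted p = 0.80). From week 4 to week 24 the log2 fold changes in liver were -0.11, 0.13, 0.29, 0.27, -0.07 and 0.11, and Ttr was called in none of the 6 weeks, with a smallest adjusted p of 0.13 at week 12. Genes called lower in liver made up 0.0101%, 1.33%, 1.22%, 0.682%, 0.746% and 0.187% of those tested over these weeks, and genes called higher 0.0405%, 6.17%, 9.42%, 6.74%, 1.73% and 0.65%. Whether the diet effect on Ttr differs between islets and liver was not tested.

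Liver held little of the other members. Irx2 reached at most 0.02 FPKM, Irx1 at most 1.12, and Gcg had a median of 0.07 FPKM. Gcg exceeded 3 FPKM in the livers of CD306 (28.7), CD407 (8.34), CD304 (5.98) and HFD617 (3.73). In these 4 livers the insulin genes summed to 3541, 2408, 356 and 388 FPKM and Sst to 8.89, 2.28, 2.01 and 1.23 FPKM, so that islet hormone transcripts were present together.

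**Figure D5:**
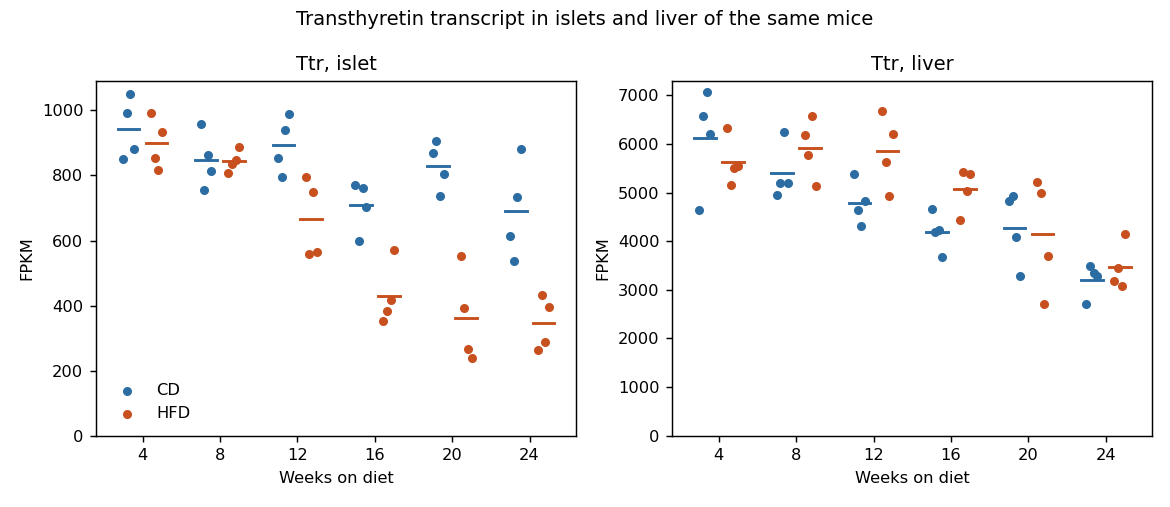
FPKM of Ttr in islets (left) and liver (right) of the same mice against weeks on diet, with 1 point per mouse, a bar for the mean of 4 mice, CD in blue and HFD in orange. In islets the diets were apart from week 16, with 264 to 434 FPKM on HFD and 536 to 882 on CD at week 24, and in liver they overlapped in all 6 weeks.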

How the data were processed

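Islets and livers of 48 mice were sequenced as poly(A) RNA on a BGISEQ-500 instrument (96 libraries). The authors deposited FPKM values per gene and library in a single table, rounded to 2 decimals. Per the labels, the submitters' processing notes name HISAT2 2.0.4, Bowtie2 2.2.5, RSEM 1.1.12, DESeq2 and the build GRCm38.p5, without giving the role of each. The table also holds the authors' group means, log2 ratios, q-values, p-values and module assignments, which were not used. It holds no counts, so single values have no counting interval.

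FPKM were transformed to log2(FPKM + 1) and fitted with limma 3.58.1 (R 4.3.3), using its trend and robust options. Benjamini-Hochberg adjustment ran over all genes that reached 1 FPKM in 4 or more of a week's 8 libraries (4 or more of 48 for contrasts across weeks). Groups were taken from the diet, week and tissue in the labels. Members were compared with each other by permutation in Python 3.11.15 with numpy 2.4.6 and pandas 2.3.3, and figures were drawn with matplotlib 3.10.9. The fits were tested on simulated data. Alternatives were another pseudocount (0.1), no filter, plain variances, median ratio scaling, totals without insulin or acinar genes, a minimum log2 fold change of 1, a straight-line trend, all 12 groups in a fit, and leaving out each mouse.

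The members and gene lists were chosen with earlier results of these data known. The genes named are the members, genes of the lists, and the 5 most like each member among genes with at least 1 FPKM in 24 of 48 libraries. Some genes of the α-cell list, and 1 of the genes most like Irx1, are not reported here, and the list's counts leave them out. Promoter sequences are from RefSeq.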

Additional observations from a re-analysis of the deposited data

Results flagged for a closer look

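Mouse HFD511 at week 20 lay far above the 3 other HFD mice of its group for Gcg and for Irx2, by a gap that Dixon's test at the 95% level marks as large for 4 values. Its Gcg was 4630.2 FPKM beside 1459.9 to 1914.5 in the others, and its Irx2 was 3.02 FPKM beside 1.26 to 1.46. In the same library Ttr was 552 and Irx1 2.36 FPKM, also the highest of the group, and it remained below every CD mouse of that week for all 4 genes. Without it, all 4 genes were called lower at week 20, with log2 fold changes of -2.44 for Gcg, -1.4995 for Ttr, -1.49 for Irx1 and -1.4975 for Irx2. Of 60 groups of 4 examined, chance alone marks about 1 in 20.

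The diet difference in islets was larger in weeks 16 to 24 than in weeks 4 to 12 for each member by limma's contrast over 48 libraries. On the log2 scale the late minus early difference was -1.7072 for Gcg (adjusted p = 2.8e-07), -0.83532 for Ttr (0.00028), -0.99465 for Irx1 (6.3e-07) and -0.86759 for Irx2 (8.6e-06). Each stayed called without any 1 of the 48 mice.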

How the results depend on the processing

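No result changed direction from a called value. At weeks 16, 20 and 24 all 4 members were called lower in every alternative fit of all mice, except that a minimum log2 fold change of 1 left 3 at week 16. The count at week 8 was 2 and became 0 with all 12 groups in 1 fit, without a filter, with median ratio scaling and with the minimum fold change, which also moved week 12 from 3 to 1. The cause was not tested for the first 3, and the median of all genes was -0.11 at week 8. Leaving out 1 mouse gave 0 to 2 members at week 8 and 2 to 4 at week 20 (2 without HFD518). In CD mice, the count lower at week 24 than at week 4 was 1 and became 0 without a filter or without insulin or acinar genes in the total, and 0 to 2 when 1 mouse was left out (2 without CD608 or HFD511). The count that differed over the 6 weeks in CD mice was 1 and became 2 with median ratio scaling, 3 without insulin and 0 without acinar genes in the total, and 1 to 3 when 1 mouse was left out (2 without CD605 or CD608, 3 without HFD511). Genes called lower made up 0.67% to 14.8% of all genes over the alternatives at week 8, 1.65% to 34.6% at week 12, 3.63% to 16.1% at week 16, 2.46% to 8.91% at week 20 and 1.55% to 3.11% at week 24. Genes called higher at week 24 numbered 769, and 400 with median ratio scaling. No paired analysis was possible because CD and HFD mice share no replicate numbers. A fit without 1 mouse assumes equal spread among those left, and the table's lack of counts limits what can be said of values near 1 FPKM.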
